A study of Mus musculus with 6 samples.

Results

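The locus described here is the mouse Tnf, Lta and Ltb gene cluster, which codes for tumour necrosis factor, lymphotoxin alpha and lymphotoxin beta. Its members are the deposited p300, PU.1 and H3K4me1 peaks that touch a 60 kb window, chr17:35310000-35370000 on mouse build mm9, together with the reads of all 8 libraries inside it. The window held 52 of the 257266 peaks in the 5 deposited lists. These were 5 p300 peaks from LPS-treated cells and 3 from untreated cells, 9 PU.1 peaks from LPS-treated cells and 10 from untreated cells, and 25 H3K4me1 peaks from untreated cells. Within the window Tnf lies near 35336300 to 35339000, with Ltb on the side of lower coordinates and Lta on the side of higher coordinates. In RefSeq (assembly GRCm38.p6) the order of genes is Aif1, Ncr3-ps, Lst1, Ltb, Tnf, Lta, Nfkbil1, Atp6v1g2 and Ddx39b, with Ltb on the plus strand and Tnf, Lta and Nfkbil1 on the minus strand. The start of Tnf therefore faces Lta. No gene model of build mm9 was used here, so peaks are placed by their distance from the centre of the p300 site over Tnf, negative towards Ltb and positive towards Lta and Nfkbil1.

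The study measured chromatin immunoprecipitation with sequencing (ChIP-seq) in macrophages grown from bone marrow of female Fvb mice and taken at day 7 of differentiation. Cells stimulated for 2 h with LPS (lipopolysaccharide, a bacterial outer-membrane glycolipid) at 10 ng/ml were compared with cells that received no treatment. p300 was sequenced in 2 biological replicates per condition and PU.1 in 1 library per condition. H3K4me1 and input DNA (sequenced chromatin without precipitation) came from untreated cells alone, with 1 library each, so no LPS value exists for either among these 8 libraries. All cells were differentiated in medium conditioned by L929 cells, and how many animals contributed to a library was not stated in the labels used here.

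Tumour necrosis factor is an inflammatory cytokine that macrophages release within hours of meeting LPS. Lymphotoxin alpha and beta belong to the same cytokine family, are made mainly by lymphocytes, and act on lymphoid organ formation through the lymphotoxin beta receptor. The p300 protein is a histone acetyltransferase bound at active enhancers and promoters, PU.1 is the ETS-family transcription factor that macrophages need for their development, and H3K4me1 is a histone mark typical of enhancers and of the flanks of active promoters, and is usually scarce at the start site of an active promoter.

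The promoters of the 3 genes are printed because the p300 and PU.1 sites over Tnf are the centre of the results. Each line gives the 250 bases before the RefSeq start, 5′ to 3′ on the strand of the gene, from assembly GRCm38.p6 (all 3 genes were matched by symbol). Capitals mark matches, on either strand, to a kappaB motif (GGG and TTTCC with any 2 bases between them), a PU.1 motif (GAGGAAGT), the ETS core it contains (AGGAAG), an AP-1 motif (TGANTCA), a CRE motif (TGACGTNA), a C/EBP motif (TTNNGNAA) or a TATA box (TATAAA).
Tnf: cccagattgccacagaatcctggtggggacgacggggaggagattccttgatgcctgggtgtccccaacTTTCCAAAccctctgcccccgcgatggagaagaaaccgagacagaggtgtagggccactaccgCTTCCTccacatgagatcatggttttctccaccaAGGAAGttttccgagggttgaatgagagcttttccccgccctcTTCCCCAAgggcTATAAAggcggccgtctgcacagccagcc
Lta: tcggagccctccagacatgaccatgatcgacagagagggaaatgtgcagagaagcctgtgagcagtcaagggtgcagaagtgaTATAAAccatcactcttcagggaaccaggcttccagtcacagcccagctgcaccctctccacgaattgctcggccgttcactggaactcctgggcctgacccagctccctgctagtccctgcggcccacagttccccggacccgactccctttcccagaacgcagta
Ltb: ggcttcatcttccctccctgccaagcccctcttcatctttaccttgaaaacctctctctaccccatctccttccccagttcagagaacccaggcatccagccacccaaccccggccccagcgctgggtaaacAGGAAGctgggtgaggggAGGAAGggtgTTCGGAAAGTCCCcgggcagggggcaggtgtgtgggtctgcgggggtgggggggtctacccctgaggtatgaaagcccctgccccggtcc

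The Tnf promoter held 2 ETS cores, 1 on each strand, 2 C/EBP matches and a TATA box at bases -29 to -24 from the start. The Ltb promoter held 2 ETS cores and a kappaB match at bases -87 to -78 that overlaps its C/EBP match. The Lta promoter held 1 match, a TATA box sequence at bases -167 to -162. None of the 3 windows held the PU.1, AP-1 or CRE letters searched. Among 32851 upstream windows of the same length, 29.5% held an ETS core, 36.8% a C/EBP match, 12.4% a TATA box and 1.41% the kappaB letters. The PU.1 letters occurred in 2.44%, the AP-1 letters in 6.75% and the CRE letters in 2.52% of them. These matches are descriptions of letters, not measured binding.

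The libraries held 5744811 to 7828655 reads, of which 5503587 to 6428281 were distinct by position and strand. The p300 libraries differed in enrichment: all p300 sites of the genome held 2.84% and 6.46% of the distinct reads in LPS replicates 1 and 2, against 1.88% and 7.16% in untreated replicates 1 and 2, and 1.29% in input. Untreated replicate 1 thus stood closest to input, and results at the locus are given with and without it. The same window held 430 input reads, more than 99.9% of the 28945 windows of this length with at least 100 input reads, whose median was 161. Whether copy number or mappability of the window moves with its read counts was not tested. The macrophage label could not be set against marker genes, because that needs gene positions on build mm9.

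**Figure D1:**
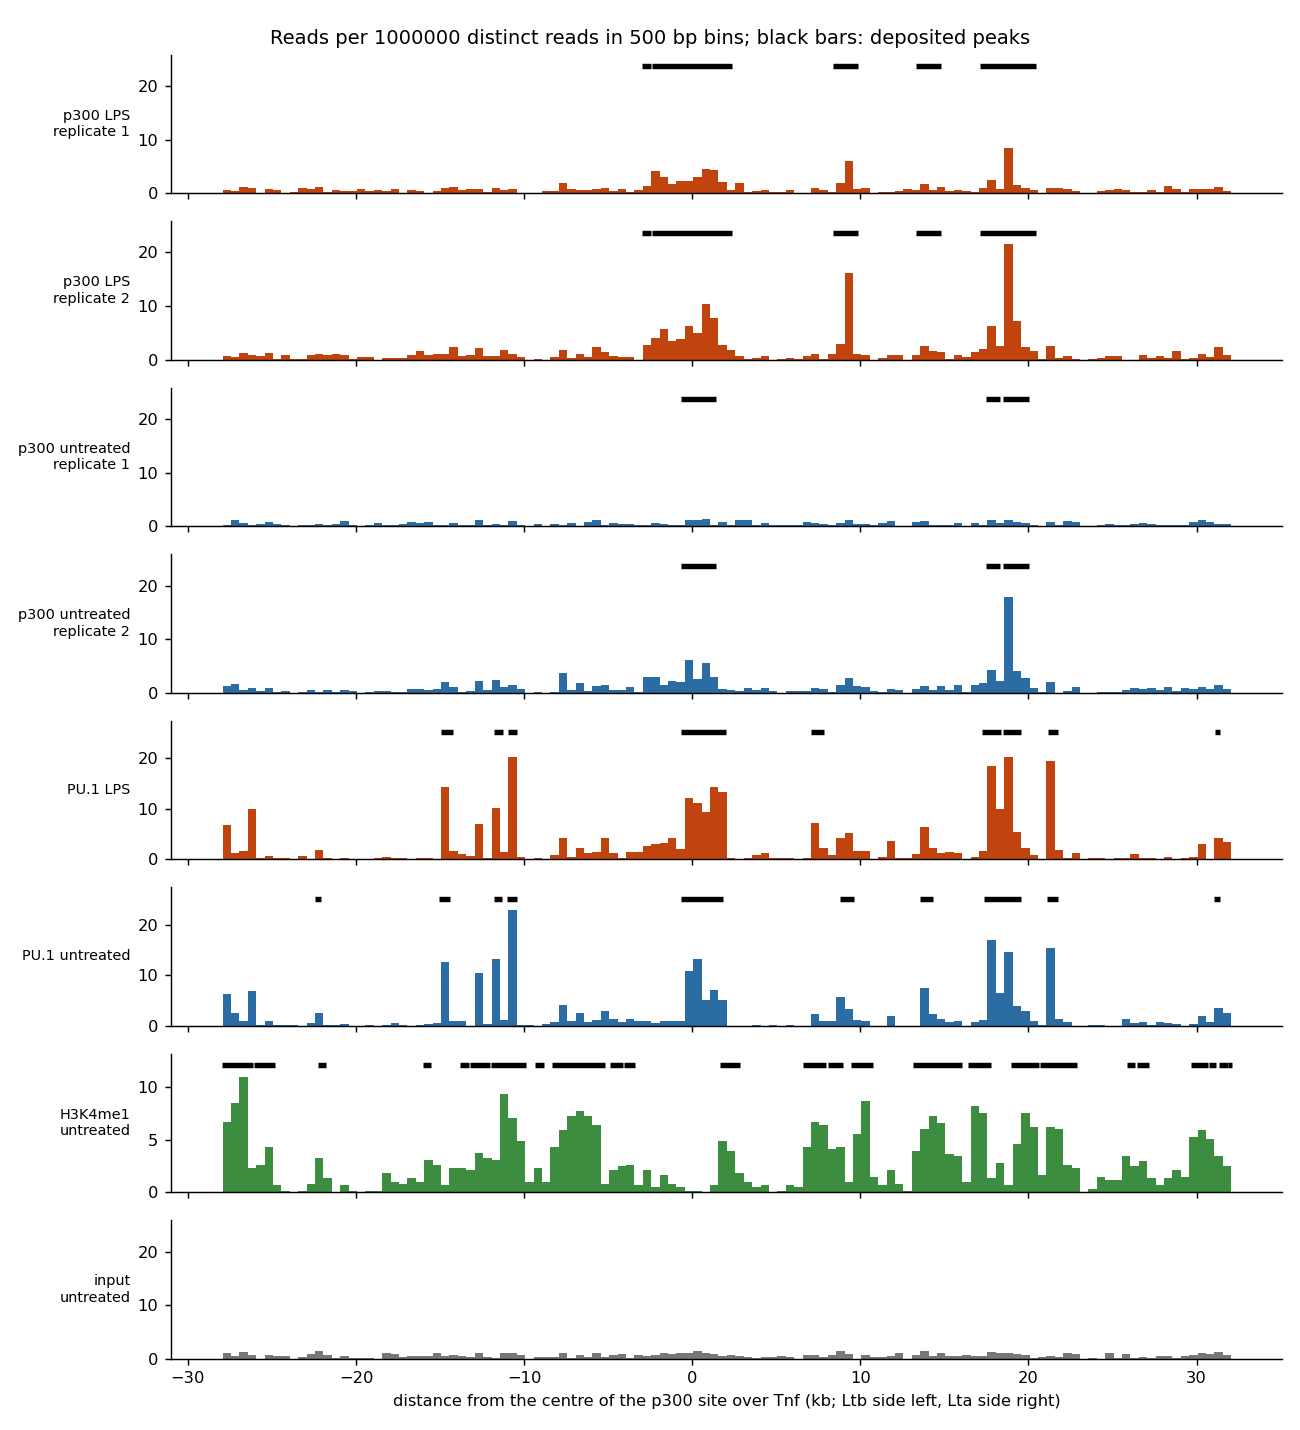
Reads per 1000000 distinct reads in 500 bp bins over the window (y axis) for the 8 libraries, LPS-treated in red above untreated in blue for p300 and PU.1, by distance from the centre of the p300 site over Tnf (x axis, kb). Black bars are deposited peaks (the p300 lists pool both replicates, so both panels of a condition show the same bars), and the H3K4me1 panel has a smaller y range than the others. The signal of p300 stands over Tnf, 9.1 kb and 18.78 kb from its centre, while untreated p300 replicate 1 is nearly as flat as input.

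The first comparison asked where p300 changed at the locus after 2 h of LPS. p300 was higher after LPS at 1 of the 5 merged p300 sites, located 9.1 kb from Tnf on the Lta side, where it reached 3.76-fold the untreated level, and the site over Tnf itself had a 2.54-fold higher level that did not pass the adjusted threshold. Across the genome 1.95% of 19725 p300 sites were called higher and 0.213% lower (limma voom, adjusted p under 0.05). No site of the locus was called lower, and 2 of the 5 had an unadjusted p under 0.05. The log2 fold change was above 0 at all 5 sites, against 50% of all sites, and its median was 0.88 at the locus and 0.00 over all sites tested. After scaling by p300 sites, both LPS libraries lay above both untreated libraries at 4 of the 5 sites, against 26.9% of all sites. With reads per 1000000 distinct reads in place of that scaling, 2 of the 5 did so, against 25.1% of all sites. Of the 5 sites, 3 were listed as p300 peaks after LPS only, 2 in both conditions and 0 in untreated cells only, while the 19725 sites held 7506, 4619 and 7600 of these kinds. A site listed in 1 condition was chosen by its reads in that condition: of all sites listed after LPS only, 99.1% had a log2 fold change above 0 and 60.8% had both LPS libraries above both untreated, against 48.9% and 16.2% of sites listed in both. The direction and median of the 3 sites listed after LPS only are thus largely set by how they were listed, and support nothing about the locus.

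Over Tnf, the p300 peak of LPS-treated cells ran from 35335551 to 35340334. At 4784 bp it was 1 of 8 among 12237 LPS p300 peaks that were at least this wide, and the median width was 540 bp. The authors' score of this peak, 1438.1, ranked 40 in its list. The untreated p300 peak here ran from 35337268 to 35339359 and scored 141.99. The wider LPS peak therefore covers all of the stretch given for Tnf and reaches beyond it on both sides, while the untreated peak begins inside it.

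The Tnf site held 153 and 293 p300 reads in LPS replicates 1 and 2, against 41 and 158 reads in untreated replicates 1 and 2. Scaled to a common size over p300 sites, these were 222 and 191 normalised reads in the LPS libraries, against 76.3 and 89.9 in the untreated libraries. The groups did not overlap on this scale, nor per 1000000 distinct reads, where LPS replicate 1 at 27.8 lay just above untreated replicate 2 at 26.7. Mean normalised reads were 206 ± 21.7 after LPS and 83.1 ± 9.63 without it (SD, n = 2 each). The log2 fold change was 1.34 ± 0.63 (SE), with a limma adjusted p of 0.256. Leaving out untreated replicate 1 gave 1.19 with a limma adjusted p of 0.219. With 2 libraries against 2, an exact permutation test could not go below p = 0.333.

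The 9.1 kb site ran from 35346309 to 35347772 and was listed as a p300 peak after LPS only, a kind of site of which 4.84% were called higher in the genome. It held 47 and 121 reads in LPS replicates 1 and 2, against 12 and 29 reads in untreated replicates 1 and 2. Normalised reads were 68.1 and 78.9 in the LPS libraries, against 22.3 and 16.5 in the untreated libraries, so that the lowest LPS value lay well above the highest untreated value. The means were 73.5 ± 7.63 after LPS and 19.4 ± 4.12 in untreated cells (SD, n = 2 each). The log2 fold change was 1.91 ± 0.55 (SE) with a limma adjusted p of 0.0325, and without untreated replicate 1 it was 2.11 with a limma adjusted p of 0.00701. The call was lost when any other library was left out, although the log2 fold change stayed at 2.06 without LPS replicate 1, 1.81 without LPS replicate 2 and 1.59 without untreated replicate 2 (limma adjusted p = 0.512, 0.650 and 0.110). With all reads kept the call was lost too (log2 fold change 1.63, limma adjusted p = 0.104). In that setting 458 sites of the genome were still called higher. The call was also lost when libraries were scaled by their distinct reads, with a log2 fold change of 2.10 and a limma adjusted p of 0.630. Under those 3 omissions and that scaling 0 sites of the whole genome passed, while 1794, 783, 3939 and 1511 sites had an unadjusted p under 0.05 in the same order.

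The 18.78 kb site, the widest after the one over Tnf, ran from 35355056 to 35358386 and had p300 peaks in both lists. It held 83 and 253 p300 reads in LPS replicates 1 and 2, against 30 and 198 reads in untreated replicates 1 and 2. Normalised reads were 120 and 165 in the LPS libraries, against 55.8 and 113 in the untreated libraries. The groups did not overlap on this scale, but per 1000000 distinct reads they did, at 15.1 and 43.6 in the LPS libraries against 4.67 and 33.5 in the untreated libraries. The log2 fold change was 0.88 ± 0.61 (SE) with a limma adjusted p of 0.364, and without untreated replicate 1 it was 0.28, a smaller difference in the same direction.

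The other 2 sites were weak and were listed after LPS only. The site at -2.72 kb, from 35334959 to 35335488, held 8 and 16 reads in LPS replicates 1 and 2, against 1 and 17 reads in untreated replicates 1 and 2. Its log2 fold change was 0.50 ± 0.67 (SE, limma adjusted p = 0.605), and without untreated replicate 1 it was 0.17. The site at 14.06 kb, from 35351264 to 35352731, held 14 and 34 reads in LPS replicates 1 and 2, against 12 and 16 reads in untreated replicates 1 and 2. Its normalised reads overlapped between the groups, at 20.3 and 22.2 in the LPS libraries against 22.3 and 9.11 in the untreated libraries. Its log2 fold change was 0.73 ± 0.53 (SE, limma adjusted p = 0.384), 1.21 without untreated replicate 1 and -0.16 without untreated replicate 2, so 1 library set its direction.

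**Figure D2:**
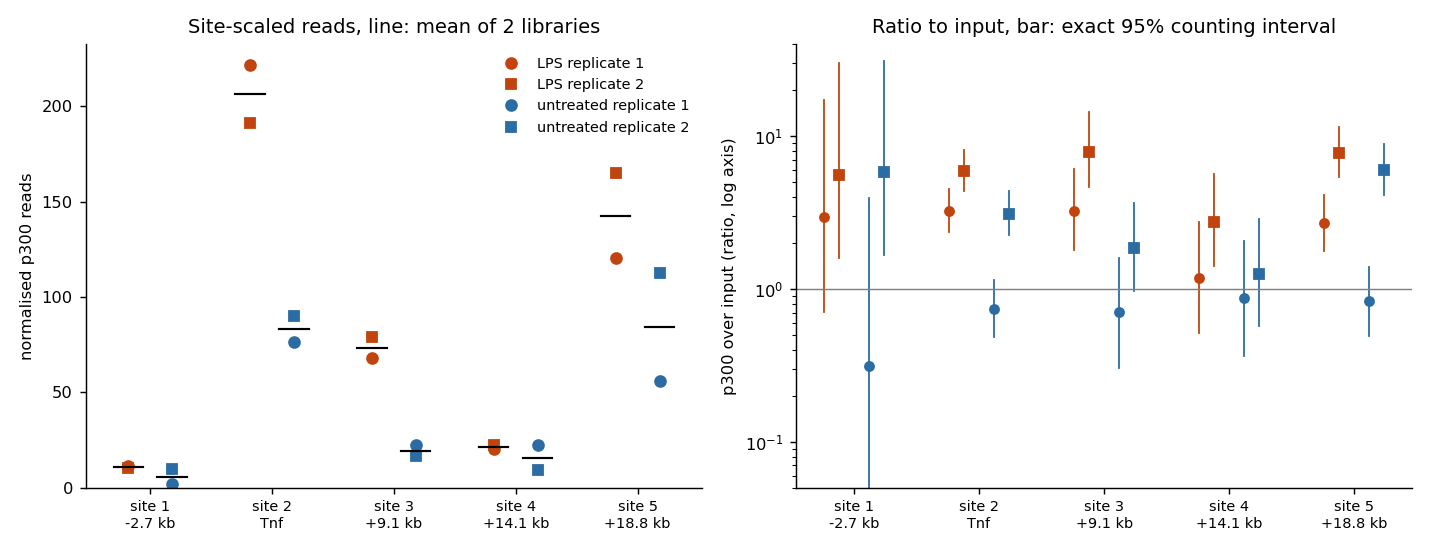
Left, normalised p300 reads (y axis) at the 5 p300 sites (x axis) in each library, LPS-treated in red and untreated in blue, with a line at the mean of the 2 libraries. Right, the ratio of each p300 library to input after scaling by distinct reads (log axis), with exact 95% counting intervals, 1 of which runs below the axis at site 1. The groups lie furthest apart at site 2 (over Tnf) and site 3 (9.1 kb), and untreated replicate 1 lies below the line of equality with input at every site.

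Set against input, the 2 replicates of untreated cells differed from each other at the stronger sites. At the Tnf site p300 was 3.24-fold and 5.88-fold over input in LPS replicates 1 and 2, against 0.743-fold and 3.11-fold in untreated replicates 1 and 2. At the 9.1 kb site it was 3.23-fold and 7.89-fold over input in the LPS libraries, against 0.707-fold and 1.85-fold in the untreated libraries. Both untreated intervals over the whole 9.1 kb site included 1, at 0.305 to 1.59 and 0.974 to 3.66. In the 500 bp around its p300 maximum, the bin at 9.31 kb, p300 was 7.26-fold and 19.6-fold over input in the LPS libraries, against 1.32-fold (0.360 to 5.27) and 3.27-fold (1.15 to 11.4) in the untreated libraries. Untreated replicate 2 thus lay above input at the centre of this site, on 16 reads against 5 of input. The 18.78 kb site was 2.69-fold and 7.77-fold over input in the LPS libraries, against 0.831-fold and 5.96-fold in the untreated libraries. Untreated replicate 1 lay between 0.314-fold and 0.870-fold of input at the 5 sites, and each of its exact 95% intervals included 1.

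The rank of a site among all 19725 p300 sites by reads per kb needs no scaling between libraries. The 9.1 kb site ranked 260 and 399 in LPS replicates 1 and 2, against 10742 and 10894 in untreated replicates 1 and 2. The Tnf site ranked 264 and 1056 in the LPS libraries, against 10208 and 6862 in the untreated libraries. The 18.78 kb site ranked 714 and 542 in the LPS libraries, against 9643 and 2212 in the untreated libraries. The 9.1 kb and Tnf sites thus stood far higher in both LPS rankings than in either untreated one. For the 18.78 kb site untreated replicate 2 came closest to the LPS libraries. The 9.1 kb site was listed after LPS only, and the bounds of all these sites are those of their LPS peaks. Higher LPS ranks are thus in part set by how the sites were listed and drawn. Untreated replicate 1 did not exceed input at these sites, so its ranks carry little weight.

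Within the Tnf site p300 reads gathered at several places, and no difference in place between conditions was shown. The position with most p300 reads within 100 bp on either side lay 0.82 and 0.89 kb from the centre of the site in LPS replicates 1 and 2, on the Lta side, with 17 and 34 reads. In untreated replicate 2 it lay at -0.34 kb with 28 reads, and untreated replicate 1 had fewer than 10 reads at any such position. In 500 bp bins, untreated replicate 1 had 9 reads at 0.81 kb and 8 at -0.19 kb. Untreated replicate 2 had 33 and 36, so these bins were nearly tied in untreated cells. LPS replicates 1 and 2 had 25 and 60 reads at 0.81 kb, and 12 and 37 at -0.19 kb. At -2.19 kb they had 23 and 24 reads, against 4 and 17 in untreated replicates 1 and 2. At the 9.1 kb site, the LPS maxima at 9.33 and 9.37 kb and that of untreated replicate 2 at 9.39 kb nearly coincided. The same held at the 18.78 kb site, with maxima at 18.83 and 18.75 kb in the LPS libraries and at 18.79 kb in untreated replicate 2. No test was made of these positions.

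**Figure D3:**
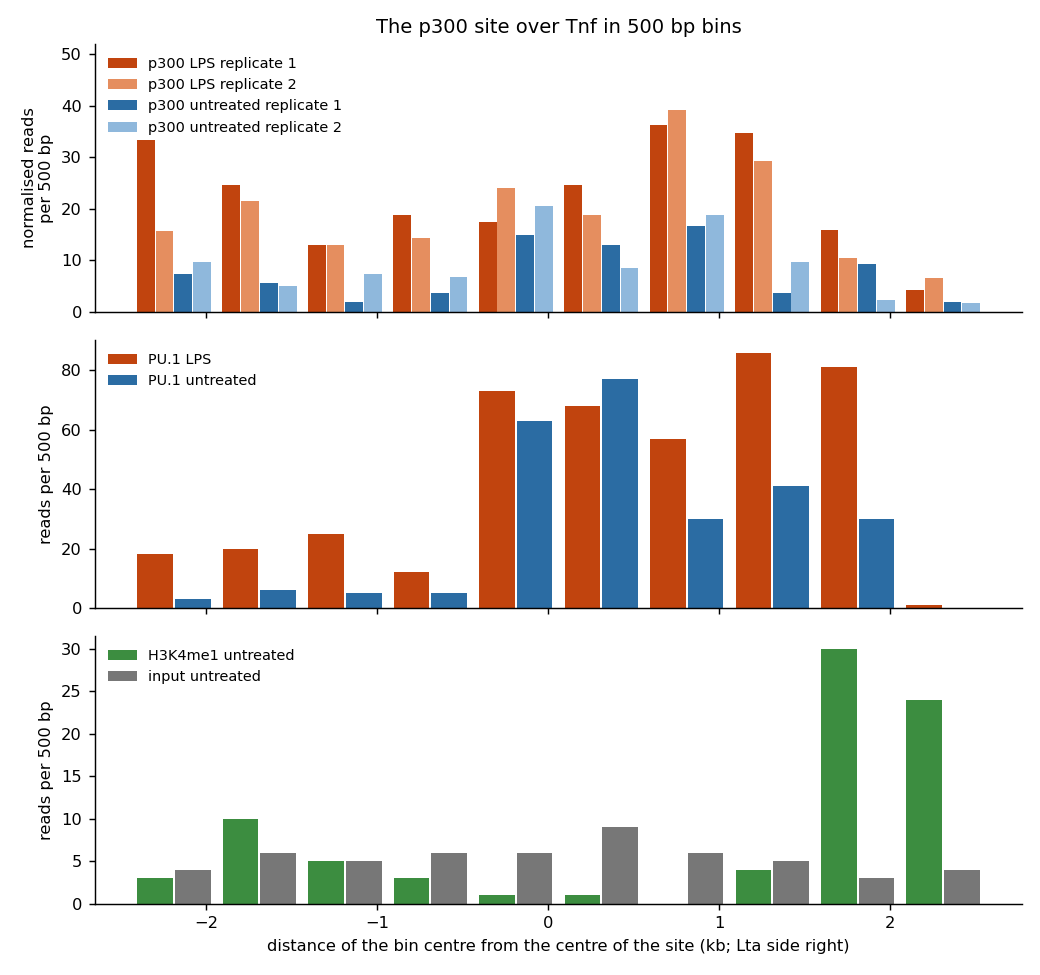
Reads in 500 bp bins across the p300 site over Tnf (y axis) by distance of the bin centre from the centre of the site (x axis, kb). The top panel shows normalised p300 reads and the middle one PU.1 reads, LPS-treated bars left of untreated bars, and the bottom one H3K4me1 and input reads of untreated cells. Normalised p300 in both LPS libraries exceeds both untreated libraries in 9 of 10 bins of this site, whose edges are those of the LPS peak. On this grid PU.1 differs most on either side of the central bins, and H3K4me1 is nearly empty in the middle.

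Bins of 500 bp were laid over the Tnf site after the data had been seen. Normalised p300 reads in both LPS libraries exceeded those in both untreated libraries in 9 of the 10 bins, against 8.47% of the 663324 bins of the genome with at least 10 p300 reads, and in 8 of 10 when the bins were moved by 250 bp. With reads divided by distinct reads the count was 7 of 10 on both grids, against 18.5%. These bins lie in a site with a p300 peak, which most bins of the genome do not. The edges of the site are those of the LPS peak, which reaches beyond the untreated peak on both sides. Bins outside the untreated peak lie in the site through the LPS peak alone, so the count is partly set by how the site was drawn. In the bin centred at 0.81 kb the p300 values were 36.2 and 39.1 in the LPS libraries, against 16.7 and 18.8 in the untreated libraries. In the bin at 1.31 kb they were 34.8 and 29.3 in the LPS libraries, against 3.72 and 9.67 in the untreated libraries. The exception was the bin at -0.19 kb, with 17.4 and 24.1 in the LPS libraries against 14.9 and 20.5 in the untreated libraries. On the scale of normalised reads the p300 difference was thus seen in most of these bins, and its spread along the site was not tested.

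PU.1 was measured in 1 library per condition, so a ratio here compares the libraries, and its exact 95% interval covers counting error only. Ratios were scaled so that the median of all PU.1 sites with at least 40 reads was 1. The window held 11 merged PU.1 sites, 10 of them with at least 40 reads. At 4 of these the interval lay wholly above 1, against 9.12% of 42937 such sites in the genome, and at 0 it lay wholly below 1, against 7.34%. The interval lay wholly above 2 at 0 sites of the locus, against 0.613%, and wholly below 0.5 at 0 sites, against 0.0443%. Sites listed in 1 condition alone were chosen in part by their reads in that condition. Among the 4, the site at 7.46 kb was listed after LPS only. The PU.1 sites within the p300 sites at 9.1 and 14.06 kb were listed in untreated cells only. With that limit, PU.1 was higher in the LPS library at some sites of the locus and lower at none beyond counting error.

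PU.1 over Tnf had a peak in both lists, merged from 35337253 to 35339931. It held 371 reads in the LPS library and 246 in the untreated library, a ratio of 1.55 (exact 95% interval 1.32 to 1.83). Over the whole p300 site, PU.1 had 441 reads in the LPS library and 260 in the untreated library, a ratio of 1.74 (1.49 to 2.04). The excess was uneven along the site. Of the 8 bins with at least 20 PU.1 reads, 6 had an interval wholly above 1, against 6.67% of such bins in the genome, and 4 of 7 did so with the bins moved by 250 bp. Reads of both libraries counted towards that minimum. The bins from -2.19 to -1.19 kb, with 3, 6 and 5 reads in the untreated library, reached it mainly through the LPS library. They also lie in the site through the LPS p300 peak alone. The count is thus partly set by how bins were chosen, and neighbouring bins are not separate measurements. The interval lay wholly above 2 in 0 of the 8 bins, against 0.507%, and in 1 of 7 with the bins moved, at 1.56 kb with 118 reads in the LPS library and 40 in the untreated library (ratio 3.03, 2.10 to 4.46).

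The central bins at -0.19 and 0.31 kb held 73 and 68 PU.1 reads in the LPS library, against 63 and 77 in the untreated library, with ratios of 1.19 and 0.908 whose intervals included 1. On the Lta side the bins at 1.31 and 1.81 kb held 86 and 81 reads in the LPS library, against 41 and 30 in the untreated library, ratios of 2.16 (1.47 to 3.21) and 2.78 (1.81 to 4.37). On the Ltb side the bins from -2.19 to -1.19 kb held 18, 20 and 25 reads in the LPS library, against 3, 6 and 5 in the untreated library, the largest ratios of the site at 6.17 (1.80 to 32.7), 3.43 (1.33 to 10.4) and 5.14 (1.93 to 17.2), on few reads. The maximum of PU.1 lay at 1.55 kb with 92 reads in the LPS library, and at 0.21 kb with 64 reads in the untreated library. On this grid the PU.1 libraries did not differ beyond counting error in the central bins and did in those named on either side. This depended on the grid. With the bins moved by 250 bp, the bin at 0.56 kb held 42 reads in the LPS library and 15 in the untreated library (ratio 2.88, 1.56 to 5.59). The moved bin at 1.06 kb held 75 and 54, and its interval included 1 (ratio 1.43, 0.994 to 2.07). The PU.1 maxima of both libraries and the p300 maxima of both LPS libraries lay on the Lta side of the centre.

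**Figure D4:**
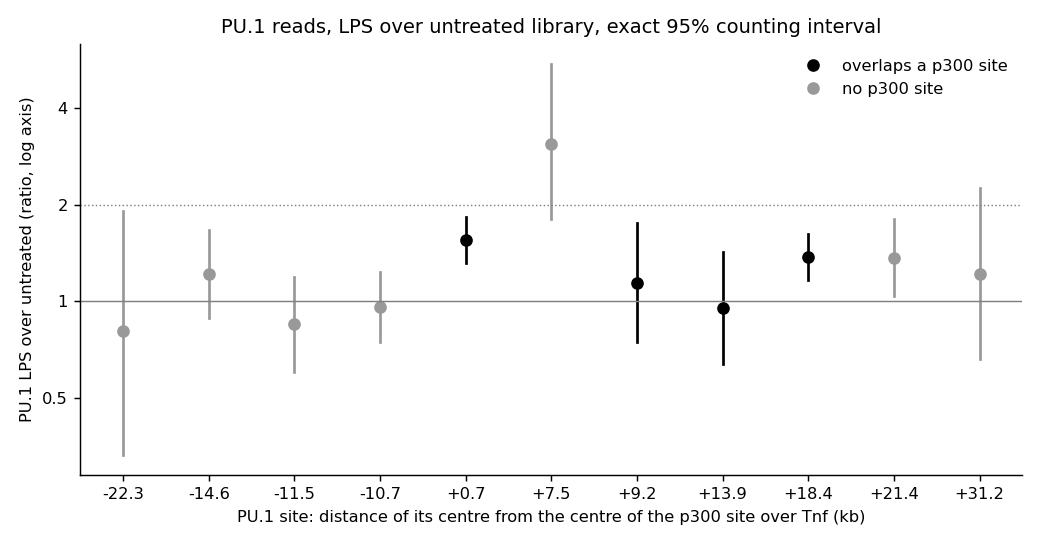
Ratio of scaled PU.1 reads in the LPS library over the untreated library (y axis, log scale) at the 11 merged PU.1 sites, ordered by distance from the centre of the p300 site over Tnf (x axis, kb). Bars are exact 95% counting intervals, black points overlap a p300 site and the dotted line marks 2-fold. The highest ratio of the 11, 3.09, belongs to a site with no p300 peak, whose PU.1 peak was listed after LPS only.

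Of the 11 merged PU.1 sites, the highest ratio was at 7.46 kb, from 35345017 to 35345797, where a PU.1 peak was listed after LPS alone. It held 57 reads in the LPS library and 19 in the untreated library, a ratio of 3.09 (1.81 to 5.49), above that of 99.1% of sites with at least 40 reads. A site listed after LPS alone was chosen by its LPS reads, and this one reached 40 reads mainly through them. All PU.1 sites listed after LPS alone held 209131 reads of the LPS library and 99885 of the untreated one. The high ratio and its position are thus partly set by how the site was listed. No p300 peak lay there, and p300 reads were few, at 6 and 6 in LPS replicates 1 and 2, against 6 and 9 in untreated replicates 1 and 2. H3K4me1 had 70 reads over this PU.1 site in untreated cells, against 6 input reads. The site thus carried the mark in untreated cells and more PU.1 in the LPS library, with p300 close to background in all 4 libraries.

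At the weak p300 site at -2.72 kb, which had no PU.1 peak, PU.1 had 17 reads in the LPS library and 5 in the untreated library, a ratio of 3.50 (1.24 to 12.1). The PU.1 site within the 18.78 kb p300 site held 336 reads in the LPS library and 252 in the untreated library, a ratio of 1.37 (1.16 to 1.62). At the 9.1 kb p300 site a PU.1 peak was listed in untreated cells alone, yet it held 50 reads in the LPS library and 45 in the untreated library, a ratio of 1.14 (0.749 to 1.75). At the 14.06 kb site a PU.1 peak was again listed in untreated cells alone, and it held 51 reads in the LPS library and 55 in the untreated library, a ratio of 0.954 (0.639 to 1.42). The listing of those peaks in 1 condition was therefore not matched by a difference in reads beyond counting error. The p300 site called higher after LPS had no detectable difference in PU.1 at this depth.

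The remaining PU.1 sites carried no p300 peak. The site at 21.42 kb held 126 reads in the LPS library and 95 in the untreated library, a ratio of 1.36 (1.04 to 1.80). On the Ltb side, the sites at -14.62, -11.53 and -10.71 kb held 92, 66 and 125 reads in the LPS library, against 78, 80 and 134 in the untreated library. Their ratios were 1.21, 0.849 and 0.959, and every interval included 1. The lowest ratio, 0.808 (0.332 to 1.92), was at -22.26 kb with 11 reads in the LPS library and 14 in the untreated library. All 4 PU.1 sites with a ratio beyond counting error lay over Tnf or on its Lta side. This did not hold for PU.1 reads outside PU.1 peaks. On the Ltb side, the H3K4me1 peak at -27.26 kb held 230 PU.1 reads in the LPS library and 189 in the untreated library. Its ratio was 1.25 (1.03 to 1.53). At the p300 site at -2.72 kb the PU.1 ratio was 3.50 (1.24 to 12.1). The intervals of the other H3K4me1 peaks on the Ltb side included 1.

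H3K4me1 was read in untreated cells alone. Its 25 peaks, 2 of them cut by the edge of the window, had log2 ratios to input of 1.23 to 4.02 with a median of 2.69, against a median of 2.51 over all H3K4me1 peaks of the genome. Of the 25, 6 overlapped a p300 site, 12 overlapped a PU.1 site and 13 overlapped neither. The lowest ratio belonged to the peak from 35315678 to 35316183, with 25 H3K4me1 reads and 10 input reads. Over the whole window the log2 ratio to input was 2.27, above that of 99.5% of windows of this length.

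H3K4me1 had a gap over Tnf. No H3K4me1 peak lay from 35334513 to 35339586, a stretch of 5074 bp that holds the whole interval given for Tnf and most of its p300 site. In this gap H3K4me1 had 45 reads and input 55, a ratio of 0.812 (exact 95% interval 0.535 to 1.23). In the interval given for Tnf itself H3K4me1 had 14 reads and input 36, a ratio of 0.386 (0.192 to 0.733). Both ratios were scaled by distinct reads, and no ratio of unmarked background was computed. They therefore show no excess of the mark over input, and cannot show a level below background. The gap held 150 and 292 p300 reads in LPS replicates 1 and 2, against 39 and 171 reads in untreated replicates 1 and 2. The exact 95% interval of the ratio to input was 2.19 to 4.17 and 4.14 to 7.53 in the LPS libraries, against 0.431 to 1.03 and 2.34 to 4.39 in the untreated libraries, so of the untreated libraries only replicate 2 had p300 above input in the gap.

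The gap closed sharply on the Lta side. The 500 bp bins at 1.81 and 2.31 kb held 30 and 24 H3K4me1 reads, against 3 and 4 input reads, while the bin at 0.81 kb held 0 H3K4me1 reads and 6 input reads. The H3K4me1 peak there, from 35339587 to 35340795, had a log2 ratio to input of 2.67. It held 30 PU.1 reads in the LPS library and 9 in the untreated library, a ratio of 3.43 (1.59 to 8.21). Before the bins were moved, the larger PU.1 ratios of the Tnf site lay at this edge and in the Ltb-side bins of the gap.

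**Figure D5:**
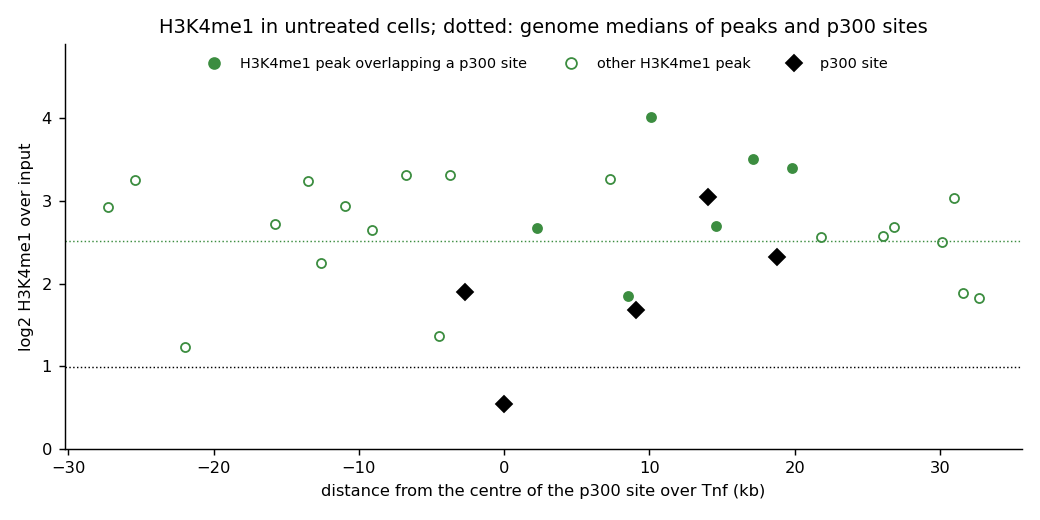
Log2 ratio of H3K4me1 to input in untreated cells (y axis) at the 25 H3K4me1 peaks (circles, filled where they overlap a p300 site) and the 5 p300 sites (diamonds), by distance from the centre of the p300 site over Tnf (x axis, kb). Dotted lines are the medians over all H3K4me1 peaks (2.51) and all p300 sites (0.99) of the genome. The p300 site over Tnf, at 0.55, is the only one of the 5 below the median of all p300 sites.

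Across the p300 sites, the log2 ratio of H3K4me1 to input was 1.90 at -2.72 kb, 0.55 over Tnf, 1.68 at 9.1 kb, 3.05 at 14.06 kb and 2.32 at 18.78 kb, and the median over all p300 sites was 0.99. The site with the most H3K4me1 over input, at 14.06 kb, had the lowest p300 over input of the 5 in both LPS libraries, at 1.18-fold and 2.73-fold. At the 9.1 kb site the mark stood on both sides of the p300 maximum. The flanking H3K4me1 peaks, from 35345992 to 35346918 and from 35347396 to 35348666, had log2 ratios of 1.85 and 4.02, the second being the highest of the window. The stretch between them holds the p300 maxima at 9.33 and 9.37 kb. At the 14.06 kb site 1 H3K4me1 peak, from 35351050 to 35354012, spanned the whole p300 site, with 188 H3K4me1 reads, 28 input reads and a log2 ratio of 2.69. At the 18.78 kb site the peaks from 35354371 to 35355709 and from 35356892 to 35358584 had log2 ratios of 3.51 and 3.40, and they left the PU.1 maxima near 18.05 kb and the p300 maxima near 18.79 kb in the stretch between them. The p300 site called higher after LPS thus already carried flanking H3K4me1 and PU.1 in untreated cells.

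On the Ltb side the window had H3K4me1 and PU.1 but no p300 peak beyond -2.72 kb. The H3K4me1 peak with the highest authors' score, 1445.58, ran from 35329583 to 35332731 and had 240 reads against 23 in input. It held no PU.1 peak and had 76 PU.1 reads in the LPS library and 66 in the untreated library, a ratio of 1.18 (0.840 to 1.67). A neighbouring H3K4me1 peak from 35325963 to 35328052 held 2 PU.1 sites, with 195 PU.1 reads in the LPS library and 218 in the untreated library over the peak, a ratio of 0.920 (0.755 to 1.12).

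The deposited lists shared their peaks to different degrees. Of the 5 LPS p300 peaks 2 overlapped an untreated p300 peak, 40% against 38.2% of the whole LPS list, and 3 of the 3 untreated p300 peaks overlapped an LPS one, against 38.1% of the whole untreated list. Of the 9 LPS PU.1 peaks 8 overlapped an untreated PU.1 peak, against 79.6% of the whole list, and 7 of the 10 untreated PU.1 peaks overlapped an LPS one, against 80.8%. Of the 5 LPS p300 peaks 4 overlapped an untreated PU.1 peak and 2 an LPS PU.1 peak, against 50.9% and 54.3% of the whole LPS p300 list. With so few peaks in the window, no share was tested against that of its list.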

How the data were processed

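The authors deposited aligned reads (1 line per read, with position and strand, on build mm9 per the submitters' processing notes) and MACS peak lists. The score of a peak, per the deposited column description, is -10 times the log10 of its p-value. Per the file headers, the control in peak calling was named naked for p300, random for PU.1 and input for H3K4me1. Both p300 replicates were pooled before peak calling, per the series' design text. The aligner was not given in the sources used here. Because the untreated PU.1 list carries a header that mentions LPS, both lists were compared with the reads. Sites found only in the LPS list held 209131 reads of the LPS library and 99885 of the untreated one. Sites found only in the untreated list held 112877 reads of the LPS library and 205566 of the untreated one, so the labels were kept.

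Here 1 read per position and strand was kept, 5′ ends were shifted by 100 bp, and chromosomes 1 to 19 and X were used. Peaks were merged within p300 and within PU.1 by an overlap of at least 1 bp. The 19725 p300 sites with a total of 10 or more reads in the 4 p300 libraries entered a limma voom fit (limma 3.58.1, R 4.3.3) with treatment as its only term. Library sizes came from the median of ratios over sites, and p-values were adjusted by Benjamini-Hochberg with a threshold of 0.05. Because the fit found a single residual variance for all sites, SE and p are not measures of the spread at any one site. Normalised reads divide the reads of a site by this library size, rescaled to the geometric mean over the 4 libraries. A ratio of 2 libraries has an exact 95% interval given their sum, and such intervals cover counting error only. H3K4me1 ratios were scaled by distinct reads, with 1 read added to each library on the log2 scale. The statistics were checked on simulated data. Python 3.11.15, numpy 2.4.6, pandas 2.3.3 and scipy 1.17.1 were used.

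Every peak of the window is a member, and every p300 site is described. Of the PU.1 sites and H3K4me1 peaks, the rule named those at p300 sites and those with the highest and lowest ratio, and the others described were chosen after their values were seen. Members and lists were chosen with earlier results of these data known. Lists of pathway genes, of cell type markers and of genes like Tnf need gene positions on build mm9 and were not used here. Alternatives were other scalings, another shift, all reads kept, no minimum of reads, limma-trend, a replicate block and each p300 library left out.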

Additional observations from a re-analysis of the deposited data

How the results depend on the processing

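The number of p300 sites of the locus called higher after LPS was 1. It was 1 with a 50 bp shift, with no minimum of reads and with limma-trend, and 0 with libraries scaled by distinct reads, by background bins or with all reads kept. With each library left out in turn it ranged from 0 to 1. With the replicate number as a block it was 2, the sites over Tnf (limma adjusted p = 0.00241) and at 9.1 kb (5.24e-05). The labels do not say that a number marks a shared animal or day. The difference between replicates 1 and 2 correlated between conditions with r = 0.330 over sites, from 2 pairs only. The block moved the calls of the genome to 897 higher and 396 lower, against 385 and 42. Calls of the genome were 0 without LPS replicate 1, without LPS replicate 2 or without untreated replicate 2, and 440 higher and 185 lower without untreated replicate 1. No setting called a site of the locus lower.

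The log2 fold change of the 14.06 kb site ranged from -0.16 (without untreated replicate 2) to 1.21 with each library left out, and was -0.14 for replicate number 1 alone, a setting chosen after seeing the data. Both negative values reverse its direction. The cause was not tested. The median log2 fold change of all sites moved to 0.20 with distinct reads as size and to 0.16 with background bins. At the 9.1 kb site the values were 2.10 and 2.08 with these sizes, and 1.63 with all reads kept (limma adjusted p = 0.104). PU.1 sites with an interval beyond 2-fold numbered 0, and beyond 1 they numbered 4, or 3 with distinct reads as size. H3K4me1 ratios, shared peaks and p300 reads over the window moved by less than their counting or replicate error, or less than 1.5 times for counts. Depth limits the weak sites: at -2.72 kb untreated replicate 1 had 1 read.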

Other observations

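Over the whole window, p300 had 578 and 1103 reads in LPS replicates 1 and 2, against 370 and 793 reads in untreated replicates 1 and 2. The log2 ratio of the scaled p300 reads was 0.45, while the median over all windows was -0.39, and 99.9% of windows had a smaller ratio. Library sizes here came from p300 sites, whose median was 0.00, and windows held a mean of 0.406 LPS p300 peaks. The median of windows and the rank thus depend on this scaling. Per 1000000 distinct reads the groups overlapped, at 105 and 190 in the LPS libraries against 57.6 and 134 in the untreated libraries. With distinct reads as size the log2 ratio was 0.62. The scaled log2 ratio ranged from 0.12 (without untreated replicate 2) to 0.77 (without untreated replicate 1) with each library left out. PU.1 had 1925 reads in the LPS library and 1513 in the untreated library, a ratio of 1.31 (exact 95% interval 1.22 to 1.40), and 80.0% of windows had a smaller one. The 5 p300 sites held 52.8% and 65.0% of the window's p300 reads in LPS replicates 1 and 2, against 25.9% and 52.7% in untreated replicates 1 and 2, and 27.4% of its input reads. The window held the centres of 5 LPS p300 peaks, where the mean was 0.406 and 142 of 28945 windows held as many or more. It held 24 centres of H3K4me1 peaks, where the mean was 2.91 and 74 windows held as many or more. Windows overlap one another, so these positions are descriptions.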
